A study of Mus musculus with 4 samples.

Results

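The miR-29 family in the mouse cortex was taken as every mature miRNA whose name has the number 29 after miR-, which gave 7 of the 942 mature miRNAs in the count table. They were 3 3p arms (miR-29a-3p, miR-29b-3p and miR-29c-3p) and 4 5p arms (miR-29a-5p, miR-29b-1-5p, miR-29b-2-5p and miR-29c-5p), cut from 4 hairpins. Small RNA of the brain cortex was sequenced from 4 B6C3 mice aged 9 months. WT1 and WT2 were wild type, and APP3 and APP4 were AD mice, which carry transgenes of APP with the Swedish mutation and of PS1 without an exon (APPswe/PS1ΔE9). The paper's methods pair WT1 with APP4 and WT2 with APP3 as siblings, and the promoters that drive the transgenes were not given in the sources used here. All 4 mice were of this 1 transgenic line or its wild-type siblings, with 2 mice per genotype and 1 library per mouse. Whole cortex holds many cell types, so fewer cells that express a miRNA and less of it per cell cannot be told apart.

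A miRNA pairs with messenger RNAs mainly through its seed, the bases from position 2 to 8 of its 5′ end, and lowers their translation and stability. Each hairpin can give a 5p and a 3p arm, of which 1 is usually kept in the silencing complex. miR-29 is known as an abundant family of the adult brain, where it rises as neurons mature, and it targets collagens and other matrix proteins as well as pro-apoptotic BH3-only genes. It is also known to target Bace1, the β-secretase that makes the first cut of APP towards amyloid β, which is why its level in an APP mouse is of interest.

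The mature sequences, from RefSeq on GRCm38.p6, are shown 5′ to 3′ with the seed in capitals. The 3p arms come first because they hold nearly all of the reads of the family and share 1 seed.
miR-29a-3p: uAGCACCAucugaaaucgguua
miR-29c-3p: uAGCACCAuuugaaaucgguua
miR-29b-3p: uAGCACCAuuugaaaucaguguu
miR-29a-5p: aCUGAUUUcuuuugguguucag
miR-29c-5p: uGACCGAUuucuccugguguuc
miR-29b-1-5p: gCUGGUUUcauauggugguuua
miR-29b-2-5p: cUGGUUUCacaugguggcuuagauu

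Counted from 1 at the 5′ end, miR-29a-3p and miR-29c-3p differ by the single substitution C10U, outside the seed. From miR-29c-3p, miR-29b-3p differs at its 3′ end, and read from miR-29b-3p the changes are A18G, G21U and U22A, with 1 base less in length. Among the 754 rows of the table that had a RefSeq sequence, which held between 90.7% and 92.0% of the miRNA reads, no row outside the family had the seed of the 3p arms. The seeds of the 4 5p arms were all different, and no other row had any of them. Reads with mismatches and changed ends were accepted in the authors' counting, so part of the reads of miR-29a-3p and miR-29c-3p could have been exchanged between them, and that share was not tested.

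On GRCm38 the hairpins form 2 clusters. Mir29a (chr6:31062660-31062747) and Mir29b-1 (chr6:31063023-31063093) lie on the minus strand of chromosome 6, 275 bases apart. Only the outermost bases at the 5′ end of Mir29b-1 overlap an exon of the long non-coding RNA Gm27019 (chr6:31063092-31063495, minus strand). Mir29b-2 (chr1:195037040-195037120) and Mir29c (chr1:195037547-195037634) lie on the plus strand of chromosome 1, 426 bases apart, inside an exon of the non-coding transcript A330023F24Rik and antisense to the annotated UTR of Cd46. The mature miR-29b-3p is the same from both clusters, so its reads cannot be assigned to chromosome 1 or 6, while each 5p arm belongs to 1 hairpin.

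The known target is printed as the site that the shared seed can pair with. The 3′ UTR of Bace1 (ENSMUST00000034591.10, plus strand of chromosome 9) holds the letters TGGTGCT, the reverse complement of the seed, 1 time in 4104 bases. The match is at chr9:45862033-45862039, position 1738 of the UTR, and is shown in capitals with the bases around it.
Bace1 3′ UTR: tccttgccctcgcacTGGTGCTgctctggc
Only the transcript's own strand was searched. The same 7 letters were found in 13.1% of the 3′ UTRs of 20999 genes, and in 34.6% of the 1587 3′ UTRs between 0.8 and 1.25 times the length of that of Bace1. The match is a description of the sequence, and Bace1 mRNA or protein was not measured in these libraries.

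The libraries held between 19048747 (APP4) and 26085776 (WT1) miRNA reads, and levels are given as reads per 1000000 miRNA reads (RPM). A count of 3 reads is worth 0.115 RPM in the deepest library and 0.157 RPM in the shallowest, and every member was above this level in every library. Neuronal marker miRNAs were present throughout, with the 5 listed summing to between 41802 and 54702 RPM. APP4 stood apart in epithelial and sensory miRNAs (the miR-200 family and the miR-183 cluster), whose 8 listed members summed to 5862 RPM against 576 to 1024 RPM in the other libraries. Their part in the results below was not tested on its own, since they were left out of the totals only together with miR-127-3p. Effective library sizes by the trimmed mean of M-values (TMM), which sets most miRNAs to no change, moved all log2 fold changes of APP4 against WT1 by -0.25 and those of APP3 against WT2 by -0.02.

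The 3p arms of miR-29 made up 0.865% (WT1) and 1.17% (WT2) of the miRNA reads of the wild-type mice and 1.22% (APP3) and 1.26% (APP4) of those of the AD mice. WT1 was thus the low library of the family, and the other 3 lay close together. By summed RPM, the seed of the 3p arms ranked 17 and 14 among 639 seeds in WT1 and WT2, and 15 and 14 in APP3 and APP4. The 4 5p arms together reached 56.3 and 49.9 RPM in WT1 and WT2 and 54.1 and 64.3 RPM in APP3 and APP4, and here WT2 was the low library.

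**Figure D1:**
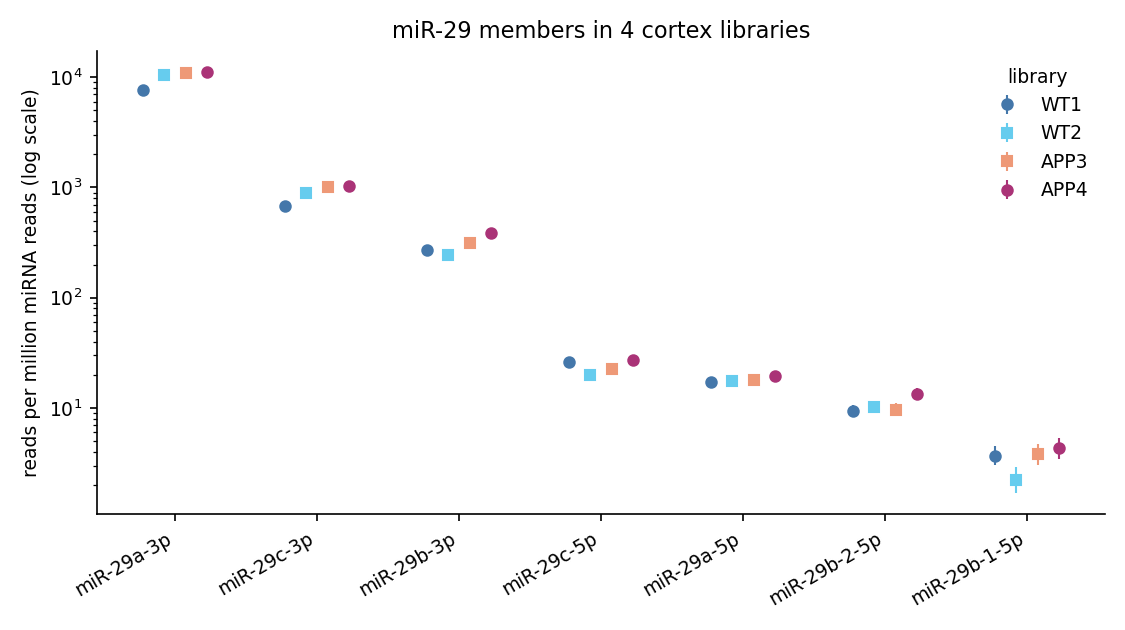
Level of each of the 7 miR-29 members (x axis) in the 4 cortex libraries, in RPM on a log axis, with bars for the 95% Wilson interval of the count where it is wider than the symbol. Circles mark 1 sibling pair (WT1 and APP4) and squares the other (WT2 and APP3), and the members run from 7696 to 11157 RPM for miR-29a-3p down to 2.22 to 4.30 RPM for miR-29b-1-5p.

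miR-29a-3p was the most abundant member and 1 of the 27 most abundant miRNAs in each library. Its counts were 200759 (WT1), 232468 (WT2), 231840 (APP3) and 212534 (APP4), equal to 7696 and 10529 RPM in the WT libraries and to 10901 and 11157 RPM in the AD libraries. Both AD libraries were above both WT libraries, and the gap between WT2 and APP3 was much smaller than the gap between WT1 and WT2. The means were 9113 ± 2003 RPM in WT and 11029 ± 181 RPM in AD (SD, n = 2). The WT mice differed by 0.45 on the log2 scale, more than the 0.28 between the genotype means, and the AD mice by 0.03.

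miR-29c-3p, from the chromosome 1 cluster, followed the same order at a lower level, with 683 (WT1) and 894 RPM (WT2) in wild type and 1014 (APP3) and 1029 RPM (APP4) in AD. The means were 789 ± 149 RPM in WT and 1022 ± 10.8 RPM in AD (SD, n = 2), and the groups did not overlap. The ratio of miR-29a-3p to miR-29c-3p stayed between 10.7 and 11.8 in the 4 libraries, with the higher values in WT (11.3 and 11.8) and the lower in AD (10.7 and 10.8). The 95% intervals of these ratios, which cover counting error only, did not overlap between the genotypes: 11.1 to 11.4 in WT1 was the lowest of WT, and 10.7 to 11.0 in APP4 the highest of AD. The interval of WT2, 11.6 to 11.9, did not overlap that of WT1 either, so mice of 1 genotype also differed by more than counting error.

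miR-29b-3p, which both clusters produce, had a different order. Its level was 272 RPM for WT1, 247 for WT2, 313 for APP3 and 390.0 for APP4, so that WT2 and not WT1 was lowest and APP4 stood above APP3. The means were 259 ± 17.9 RPM in WT and 351 ± 54.6 RPM in AD (SD, n = 2), a log2 difference of 0.44 whereas mice of 1 genotype differed by 0.14 (WT) and 0.32 (AD). Its share of the 3p reads of the family was 3.14% for WT1, 2.11% for WT2, 2.56% for APP3 and 3.10% for APP4. That share grouped the sibling pair WT1 and APP4 at the top and the pair WT2 and APP3 below it, rather than the genotypes. miR-29a-3p held between 88.7% and 90.2% of the 3p reads in all libraries.

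The 5p arms, usually degraded as passenger strands, were rare. miR-29c-5p was the most abundant of them in each library, at 26.2 and 19.7 RPM in WT1 and WT2 and 22.6 and 27.3 RPM in APP3 and APP4, and the genotypes overlapped. miR-29a-5p was at 17.1, 17.7, 18.1 and 19.3 RPM in the same order, the narrowest range of the 7 members as a ratio of highest to lowest, with AD above WT but the 95% counting intervals of all 4 libraries overlapping. miR-29b-2-5p was at 9.35, 10.2, 9.64 and 13.3 RPM, with APP4 alone above the rest. miR-29b-1-5p, the rarest, had 96 and 49 reads in WT1 and WT2 and 81 and 82 reads in APP3 and APP4, or 3.68, 2.22, 3.81 and 4.30 RPM. WT2 was low and the other 3 libraries had overlapping 95% intervals, from 3.01 to 4.49 RPM in WT1 and from 3.47 to 5.34 RPM in APP4.

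The order of the levels was therefore the same in every library for the 3p arms, miR-29a above miR-29c above miR-29b, and for the 5p arms miR-29c-5p, miR-29a-5p, miR-29b-2-5p and miR-29b-1-5p. The closest neighbours were miR-29c-5p and miR-29a-5p, whose ratio was 1.12 in WT2 with a 95% interval of 0.973 to 1.28, so they did not differ there beyond counting error. Levels of different miRNAs in such libraries also depend on how well each end ligates to the adapters, which was not tested.

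Within the sibling pair WT1 and APP4, all 7 members had a higher level in APP4, and 4 passed Fisher's exact test at a false discovery rate (FDR) under 0.05, where 40.3% of the 899 miRNAs tested did. Only miR-29c-3p also reached the 1.5-fold limit, with a log2 fold change of 0.59 (counting SE 0.01, 1.51-fold). Over all miRNAs, 9.68% were called higher by this rule and 1.89% lower, so 1 of 7 members is near the background. miR-29a-3p rose 1.45-fold (log2 0.54), miR-29b-3p 1.43-fold (log2 0.52, FDR 2.03e-103) and miR-29b-2-5p 1.43-fold (log2 0.51, FDR 0.000315), all under the limit. The other 3 5p arms had log2 fold changes of 0.23 (miR-29b-1-5p), 0.18 (miR-29a-5p) and 0.06 (miR-29c-5p) and did not pass. The median over the 7 members was 0.51, beside 0.21 over all miRNAs tested and 0.14 over the 252 miRNAs whose mean level reached 50 RPM.

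The call of miR-29c-3p depended on the scaling. With TMM library sizes its log2 fold change was 0.34 and no member was called, while over all miRNAs the calls went from 87 higher and 17 lower to 39 and 46, and 3 of the 5p arms turned lower in APP4 (-0.19 for miR-29c-5p, -0.07 for miR-29a-5p and -0.03 for miR-29b-1-5p). Without the epithelial and sensory list and miR-127-3p in the totals, the log2 fold change of miR-29c-3p was 0.54, also under the limit. The list held 5862 RPM in APP4 and 1024 RPM in WT1. It was left out only together with miR-127-3p, so the part of each was not tested.

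Within the sibling pair WT2 and APP3, 6 of the 7 members had a higher level in APP3. The log2 fold changes of the 3p arms were smaller than in the other pair, and those of miR-29b-1-5p and miR-29c-5p were larger. Again 4 members passed the exact test, where 36.0% of 896 miRNAs did. Such shares include miRNAs with few reads, and 379 of the 896 reached 10 RPM in either library. A share at a like read depth was not computed, and with many reads a small difference passes. miR-29b-3p rose by 0.34 (SE 0.03, FDR 6.00e-38), miR-29c-3p by 0.18 (SE 0.01) and miR-29a-3p by 0.05 (SE 0.004) on the log2 scale. miR-29b-1-5p was the only member called, at 0.77 (SE 0.26, FDR 0.00935 by Fisher's exact test), from 49 and 81 reads. In this pair 3.35% of all miRNAs were called higher and 3.46% lower. The other 3 5p arms did not pass the exact test, with log2 fold changes of 0.19 (miR-29c-5p), 0.03 (miR-29a-5p) and -0.09 (miR-29b-2-5p). The median over the members was 0.18, beside 0.05 over all miRNAs.

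**Figure D2:**
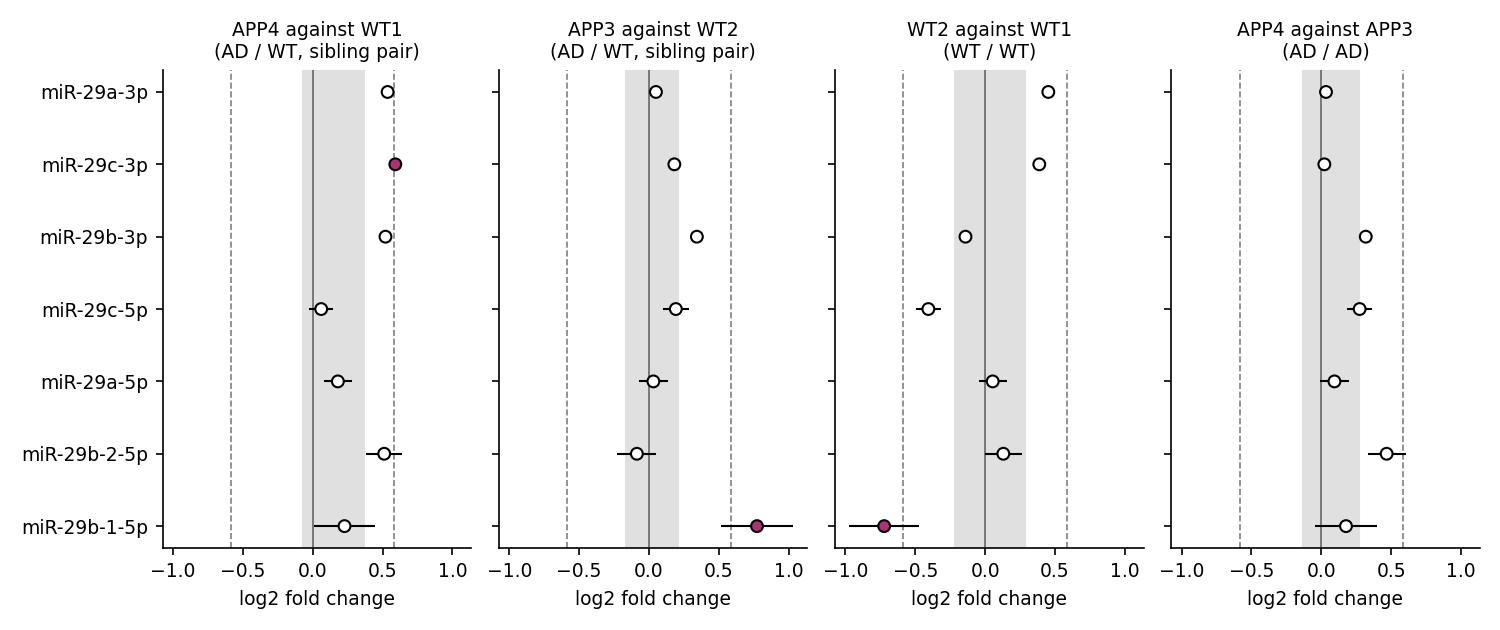
Log2 fold change of each miR-29 member between pairs of libraries (x axis), for both sibling pairs and for the pairs of mice of 1 genotype, with bars of 1 SE that covers counting error only. Filled points passed Fisher's exact test at FDR under 0.05 and 1.5-fold, whose limits are the dashed lines, and the grey band holds the middle of the log2 fold changes, from the lower to the upper quartile, of the 252 miRNAs of at least 50 RPM. The difference of WT2 from WT1 was 0.45 for miR-29a-3p and 0.39 for miR-29c-3p, between their differences in the sibling pairs (0.54 and 0.59 in APP4 against WT1, 0.05 and 0.18 in APP3 against WT2).

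Mice of the same genotype were compared in the same way. Each of these comparisons crosses the sibling pairs, so it holds differences between mice, sibling pairs and libraries together. WT2 against WT1 had 5 of 7 members past the exact test, beside 40.5% of all 879 miRNAs, with miR-29a-3p (0.45) and miR-29c-3p (0.39) higher and miR-29b-3p (-0.14), miR-29c-5p (-0.41) and miR-29b-1-5p (-0.72) lower. Of these, miR-29b-1-5p also passed the fold limit, where 2.50% of miRNAs were called lower and 7.62% higher. APP4 against APP3 had 4 members past the exact test, beside 35.2% of 907 miRNAs, and none was called with the fold limit, where 5.07% were called higher and 2.98% lower. The largest of these differences were 0.47 for miR-29b-2-5p, 0.32 for miR-29b-3p and 0.27 for miR-29c-5p. miR-29a-3p and miR-29c-3p differed by only 0.03 and 0.02 between the AD mice, and the FDR was 0.287 for miR-29c-3p by the exact test. The comparison of APP4 with WT1 and that of WT2 with WT1 share the WT1 library, in which miR-29a-3p and miR-29c-3p were lowest.

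The AD and WT mice that are not siblings were compared too, on the same 4 libraries. APP4 against WT2 had 6 of 7 members past the exact test, beside 38.2% of all miRNAs, and 2 called higher with the fold limit, beside 6.25% (4.35% lower). These were miR-29b-3p at a log2 fold change of 0.66 (SE 0.03) and miR-29b-1-5p at 0.95 (SE 0.26), both of which were lowest in WT2. APP3 against WT1 had 4 members past the exact test, beside 38.1%, and none called with the fold limit, beside 8.67% higher and 2.48% lower, with miR-29c-3p (0.57) and miR-29a-3p (0.50) just under it.

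Across the genotypes, both AD libraries were above both WT libraries for 5 of the 7 members in RPM (the 3p arms, miR-29a-5p and miR-29b-1-5p), where 27.0% of the 623 miRNAs tested were, and no member had both below, where 8.99% of the miRNAs did. With TMM library sizes this held for 2 members (miR-29b-3p and miR-29c-3p), where 14.9% of miRNAs did. With RPM of the clean reads it held for 4, miR-29a-3p dropping out, where 25.0% did. miR-29b-3p and miR-29c-3p were therefore the members with both AD libraries above both WT libraries under all 3 scalings. The share of all miRNAs that did so was not counted. With TMM the gap was smaller than the one between the WT mice. miR-29c-3p was at 939 RPM in APP4, and at 743 and 903 RPM in WT1 and WT2. miR-29b-3p was at 312 RPM in APP3, and at 296 and 249 RPM in WT1 and WT2. With 2 mice per genotype there are 6 splits of the mice, so an exact permutation test cannot give a two-sided p below 0.333.

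**Figure D3:**
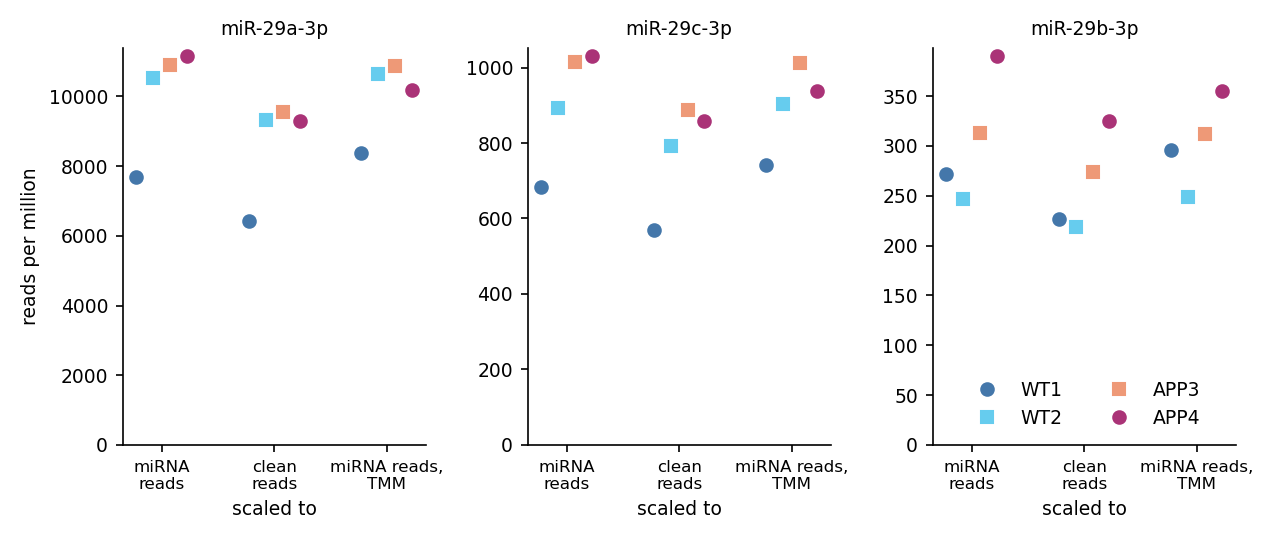
Levels of the 3p arms in the 4 libraries (y axis, in reads per 1000000, from 0) under 3 library sizes (x axis): the miRNA reads, the clean reads, and the miRNA reads with TMM factors. The AD libraries lie above both WT libraries under all 3 for miR-29c-3p and miR-29b-3p, and for miR-29a-3p WT2 lies above APP4 with the clean reads (9334 and 9301) and with TMM (10640 and 10174).

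edgeR's quasi-likelihood test over the 4 mice, which uses the spread between mice, gave log2 fold changes of 0.15 (SE 0.20) for miR-29a-3p, 0.29 (SE 0.20) for miR-29b-3p and 0.25 (SE 0.19) for miR-29c-3p. For the 5p arms they were 0.30 (SE 0.31) for miR-29b-1-5p, 0.09 (SE 0.20) for miR-29b-2-5p, -0.03 (SE 0.19) for miR-29a-5p and -0.03 (SE 0.24) for miR-29c-5p. No member passed, with edgeR's adjusted p between 0.929 and 0.995 and a lowest unadjusted p of 0.19, for miR-29b-3p. Of all 623 miRNAs, 0 passed (0%), and 36 (5.78%) had an unadjusted p under 0.05, none of them a miR-29 member. DESeq2 called 0 miRNAs too, with 28 at an unadjusted p under 0.05. The median over the 7 members was 0.15, beside -0.02 over all miRNAs tested. The edgeR log2 fold change of miR-29a-3p turned to -0.02 without WT1 and was 0.37 without WT2.

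The 3 3p arms summed were at 10161 ± 2134 RPM in WT and 12403 ± 246 RPM in AD (SD, n = 2), a log2 difference of 0.29. It was 0.09 without WT1 and 0.52 without WT2, so the size of the difference rests on which WT mouse is used.

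The ratio of the arms of each hairpin does not depend on the library size. miR-29a had 451 3p reads per 5p read in WT1 and 595 in WT2, and 602 and 578 in the AD libraries APP3 and APP4. The 95% interval of WT1, 411 to 495, lay below those of the other 3, which overlapped each other. For miR-29c the ratio was 26.1 (WT1), 45.3 (WT2), 44.9 (APP3) and 37.7 (APP4), again lowest in WT1. For miR-29b, where the reads of both hairpins had to be summed, it was 20.9, 19.8, 23.3 and 22.1, and the intervals of all 4 libraries overlapped. None of these ratios of 3p to 5p reads separated AD from WT by more than its interval.

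A low ratio in WT1 was also common outside the family. Among the 111 miRNAs with at least 100 reads on both arms in every library, the log2 ratio in WT1 was below the mean of the other 3 libraries in 72, with a median difference of -0.10. It was -0.39 for miR-29a, as low or lower in 25 of the 111 including itself, and -0.70 for miR-29c, as low or lower in 3 of the 111 including itself.

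**Figure D4:**
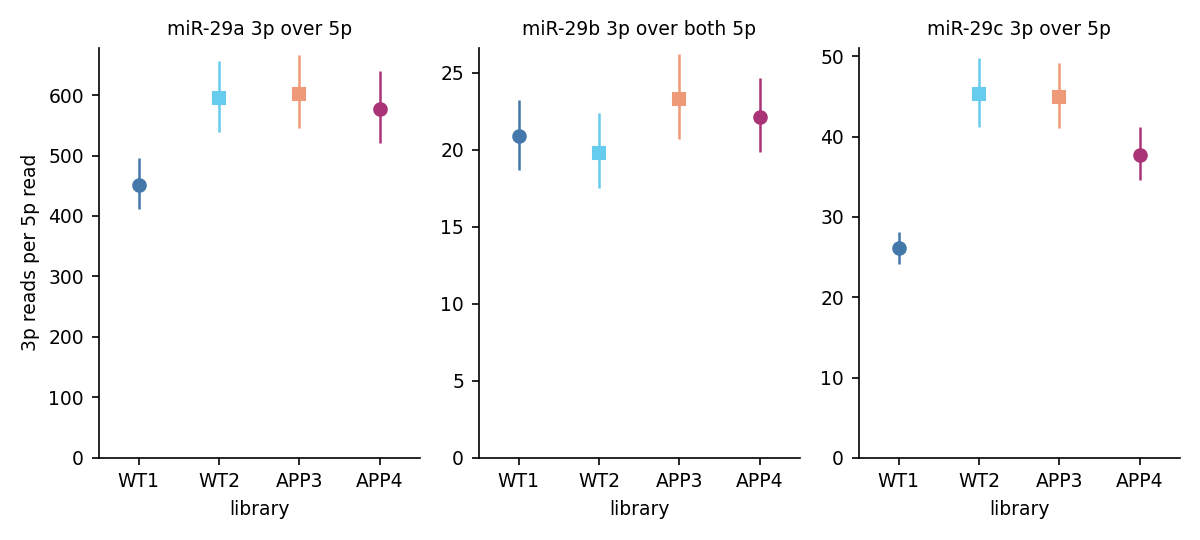
Reads of the 3p arm per read of the 5p arm (y axis, from 0) in each library (x axis) for miR-29a, miR-29b with both of its 5p arms summed, and miR-29c, with 95% intervals that cover counting error only. WT1 is low for miR-29a (451) and miR-29c (26.1), and the 4 libraries of miR-29b lie between 19.8 and 23.3.

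The clusters were compared by their 5p arms, because only these tell the copies of miR-29b apart. The chromosome 1 cluster (miR-29b-2-5p and miR-29c-5p) gave 1.71 reads per read of the chromosome 6 cluster (miR-29a-5p and miR-29b-1-5p) in WT1 and 1.5 in WT2, and 1.47 and 1.72 in APP3 and APP4. The values grouped by sibling pair, at 1.71 and 1.72 against 1.5 and 1.47, and all 4 intervals overlapped. These rare arms do not stand for the whole output of a cluster. In the 3p reads, miR-29a-3p of chromosome 6 was 10.7 (APP3) to 11.8 (WT2) times miR-29c-3p of chromosome 1. miR-29b-2-5p exceeded miR-29b-1-5p in every library, 2.54 times (WT1), 4.61 times (WT2), 2.53 times (APP3) and 3.10 times (APP4).

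The miRNAs whose levels followed the 3p arms most closely were found by the root mean square distance of the log2 RPM, centred on its mean over the 4 libraries, among the 249 other miRNAs whose mean level reached 50 RPM. miR-194-5p (distance 0.023), miR-326-3p (0.025) and miR-369-3p (0.051) were nearest to miR-29a-3p, where the median distance was 0.25. miR-194-5p was at 62.4 and 82.9 RPM in WT1 and WT2 and at 85.2 and 90.1 RPM in APP3 and APP4, again with WT1 low. miR-326-3p (0.047), miR-194-5p (0.056) and miR-142-5p (0.057) were nearest to miR-29c-3p. miR-142-5p is a marker of leukocytes and microglia. It was at 54.7 and 74.3 RPM in WT1 and WT2 and at 88.4 and 90.9 RPM in APP3 and APP4. Among the other listed markers of these cells, miR-142-3p was higher in both AD mice, and miR-146a-5p and miR-223-3p overlapped between the genotypes. The part of these cells in the level of miR-29c-3p was not tested. The distance between miR-29a-3p and miR-29c-3p was 0.052, with 3 of the 249 miRNAs nearer to miR-29a-3p and 1 nearer to miR-29c-3p.

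miR-29b-3p was nearest to other miRNAs, namely miR-136-5p (0.049), miR-210-3p (0.050) and miR-423-5p (0.060). Its distance was 0.24 from miR-29a-3p and 0.22 from miR-29c-3p, close to its median distance of 0.24 from the 249 miRNAs. Over 4 libraries such distances are a description, and how often near patterns arise when 1 library stands apart was not tested.

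**Figure D5:**
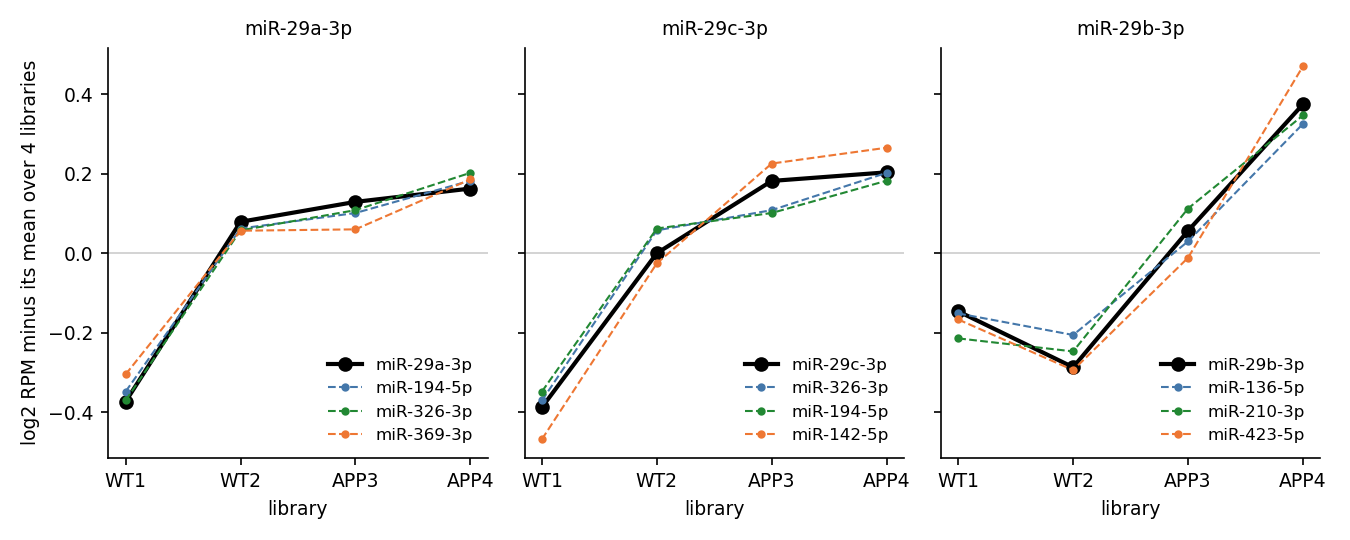
Log2 RPM minus its mean over the 4 libraries (y axis) in each library (x axis) for each 3p arm in black and its 3 nearest miRNAs in colour, with lines only to join the points of 1 miRNA. miR-29a-3p and miR-29c-3p are lowest in WT1 and highest in APP4, with miR-29c-3p at 894 RPM in WT2 against 1014 and 1029 RPM in the AD libraries, while miR-29b-3p is lowest in WT2 and highest in APP4.

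The other miRNAs that the paper names as regulators of BACE1 (miR-107-3p, miR-9-5p, miR-328-3p and miR-298-5p) were listed beside the family. None of the 4 was called in either sibling pair with the fold limit, and 2 rose and 1 fell past the exact test in APP4 against WT1, as 3 rose and 1 fell in APP3 against WT2. Over all miRNAs, 40.3% and 36.0% passed the exact test in these pairs, and with the fold limit 9.68% and 3.35% were called higher and 1.89% and 3.46% lower. Their median log2 fold changes were 0.10 and 0.15, beside 0.21 and 0.05 over all miRNAs tested. miR-107-3p (0.22 and 0.27) and miR-328-3p (0.25 and 0.31) rose past the exact test in both pairs. miR-328-3p was at 1396 and 1586 RPM in WT1 and WT2 and 1970 and 1654 RPM in APP3 and APP4. The levels of miR-107-3p overlapped between the genotypes. miR-9-5p, an abundant neural miRNA, was at 36670, 29300, 29940 and 34938 RPM, with the lower values in the pair WT2 and APP3.

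Of the miRNAs named for APP mRNA or its splicing, 7 were listed (miR-124-3p, miR-101a-3p, miR-101b-3p, miR-147-3p, miR-16-5p, miR-20a-5p and miR-153-3p), and miR-520c and miR-644 were not analysed here. The 7 also had no call in either pair. Of these, 5 rose and 1 fell past the exact test in APP4 against WT1, and 3 rose and 2 fell in APP3 against WT2, where 40.3% and 36.0% of all miRNAs passed. Their medians were 0.22 and 0.07, beside 0.21 and 0.05 over all miRNAs tested. miR-16-5p (0.33 and 0.10) and miR-101b-3p (0.11 and 0.16) rose past the exact test in both pairs. miR-124-3p, a neuronal miRNA, rose in the first pair (0.22) and fell in the second (-0.34). In edgeR over the 4 mice the adjusted p of all 11 miRNAs of both lists was at least 0.929.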

How the data were processed

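Small RNA libraries of the cortex of 2 WT and 2 AD mice were sequenced on an Illumina instrument. The authors trimmed and size-selected the reads, matched those of small RNA length to miRBase with Bowtie and counted reads per mature miRNA, variants included, in CLC Genomics Workbench. The authors deposited these counts without normalization, beside RPM values (headed TPM) that are the counts over all clean reads and served here for the clean read totals. The submitters' processing notes name CASAVA 1.8 and the genome build mm9, and the paper's methods name GRCm38; the table holds no coordinates, and the loci printed here are on GRCm38.

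The members and lists were chosen with earlier results of these data known. Library size was the sum of a library's miRNA counts. Between libraries, reads were compared by Fisher's exact test, two-sided (scipy 1.17.1), with Benjamini-Hochberg FDR over all miRNAs with a read, and a miRNA was called at FDR under 0.05 and at least 1.5-fold, the limits of the paper's methods. This test compares 2 libraries, not the genotypes, and the SE of log2 fold changes (0.5 read added) covers counting error only, as do Wilson intervals of counts. PCR copies are not independent molecules. Unscaled counts entered Fisher's exact test here, whereas the paper describes counts normalized to the total of the miRNA reads. With counts scaled to 1000000 reads, 33 miRNAs were called in APP4 against WT1 and 23 in APP3 against WT2. With unscaled counts, 104 and 61 were called. Genotypes were compared with edgeR 4.0.16 (filterByExpr, TMM, quasi-likelihood, no block, 623 miRNAs), with the sibling pair as a block and DESeq2 1.42.0 as alternatives. The SE of edgeR's log2 fold changes was derived as their absolute value over the square root of the test's F statistic. Deviations of siblings from their genotype means correlated with r = 0.235 over 252 miRNAs, and the pairing itself comes from the paper's methods. No 2 libraries differed by sampling noise alone (lowest chi-square per degree of freedom 574). Each library is 1 mouse, so edgeR's p-values weigh the difference of the genotypes against the spread between mice of 1 genotype. Without the block, that spread includes the difference between the sibling pairs.

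The miRNAs named were all members, rows with the seed of a 3p arm, the BACE1 and APP lists from the paper's introduction, and the 3 miRNAs nearest to each 3p arm. Cell type lists were used as summed levels. Other cell type lists, as ranges of summed RPM in WT and in AD, were 1793 to 2057 and 2036 to 2140 for oligodendrocytes (3 miRNAs), 1153 to 1211 and 1120 to 1309 for microglia and leukocytes (4), 31224 to 32293 and 24254 to 29895 for vessels (3 of the 4 listed), and 3993 to 4626 and 3206 to 4047 for erythroid cells (3). Members differed within lists. miR-146a-5p made up most of the microglial sum (1023 to 1209 RPM), while miR-142-3p and miR-142-5p were higher in both AD mice. In the vessel list miR-143-3p, most of the sum (16628 to 24328 RPM), was lower and miR-126-3p higher in both AD mice. miR-126-5p overlapped between the genotypes. The listed miR-145-5p had no row of that name, and the row of miR-145a-5p was not summed. Of the 623 miRNAs tested, 27.0% were higher and 8.99% lower in both AD mice. Sequences and loci came from RefSeq GRCm38.p6 and GENCODE vM21.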

Additional observations from a re-analysis of the deposited data

Results flagged for a closer look

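miR-29b-2-5p changed sign between the sibling pairs. It is the 5p arm of the chromosome 1 copy of miR-29b. Its log2 fold change was 0.51 in APP4 against WT1, from 254 and 244 reads at unequal depth, and -0.086 in APP3 against WT2, from 205 and 226 reads. Whether the pairs differ was not tested, since each pair holds 1 mouse of each genotype. In APP4 the epithelial and sensory miRNAs were also high, at 5862 RPM. Without them and miR-127-3p in the totals, miR-29b-2-5p was at 0.46 in APP4 against WT1 and -0.053 in APP3 against WT2. The part of the epithelial and sensory miRNAs alone was not tested.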

How the results depend on the processing

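In APP4 against WT1, 1 member was called, and 0 were with TMM library sizes, without the epithelial and sensory list and miR-127-3p, at a 2-fold limit, or with miR-29a-3p and miR-29c-3p summed. In APP3 against WT2 and in WT2 against WT1, 1 member was called, and 0 were with counts scaled to 1000000 reads, a minimum of 10 RPM, the Bonferroni correction or a 2-fold limit. The other alternatives for these pairs (clean reads, 5 reads added) kept the counts, and no alternative called a member in APP4 against APP3. In edgeR over the 4 mice 0 members were called under every alternative, including DESeq2's test, its size factors, no TMM, no filter, each mouse left out (0 to 0) and the sibling pair as a replicate block (0 members). Over all miRNAs edgeR called 0, and 2 with the block, 3 without WT1, 0 without WT2, 21 without APP3 and 5 without APP4. TMM turned the split of all calls from 67 higher and 22 lower to 40 and 37 in WT2 against WT1, and from 46 and 27 to 29 and 42 in APP4 against APP3. The causes were not tested. Without 1 mouse the lone mouse of its genotype is assumed to vary like the others. Without WT1, miR-29b-1-5p had an unadjusted p of 0.0488 and an adjusted p of 0.812.

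The summed 3p level, at a log2 difference of 0.29, was 0.16 with TMM and 0.27 with the clean reads (added after seeing the data), and ranged from 0.088 to 0.52 with each mouse left out, the highest without WT2. With TMM, APP4 against WT1 gave -0.19 for miR-29c-5p, -0.026 for miR-29b-1-5p and -0.074 for miR-29a-5p. With counts scaled to 1000000 reads, miR-29b-1-5p was at -4.2e-05 in that pair and miR-29a-5p at -1.9e-05 in APP3 against WT2. In edgeR, miR-29a-5p and miR-29c-5p were at 0.11 and 0.12 without TMM and at 6.7e-05 and 0.0054 without the filter. With each mouse left out, miR-29a-3p ranged from -0.025 (without WT1) to 0.37 (without WT2), miR-29b-1-5p from -0.014 (without WT2) to 0.77 (without WT1), miR-29b-2-5p from -0.10 (without APP4) to 0.25 (without APP3) and miR-29c-5p from -0.23 (without WT2) to 0.24 (without WT1). Depth limits miR-29b-1-5p most, with 49 to 96 reads.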
